A study of Mus musculus with 24 samples.

Results

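The epidermal growth factor receptor family was followed across mouse lung tumours driven by mutant EGFR transgenes and normal lungs. The genes were Egfr, Erbb2, Erbb3 and Erbb4, which encode the 4 ERBB receptors, and Lrig1, which encodes a membrane protein that binds ERBB receptors. Every probe set that the array annotation assigned to 1 of these genes alone was taken by itself, which gave 14 of 45037 probe sets and 5 of 18193 genes. Egfr had 7 probe sets, Lrig1 had 3, Erbb3 had 2, and Erbb2 and Erbb4 had 1 each.

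RNA of 24 lung samples was measured on 1 Affymetrix array each. The tumours were visible nodules dissected from bitransgenic mice kept for 3 to 6 months on a diet with doxycycline (dox). There were 4 L858R tumours (strain label FVB mixed), 5 L858R+T790M tumours (FVB) and 5 T790M tumours (FVB). They were set against 5 normal lungs labelled FVB mixed (mixed-strain normals) and 5 labelled FVB (FVB normals), from littermates on dox with no transgene or only 1. L858R switches the EGFR kinase on, and T790M, in the same kinase, lowers its sensitivity to EGFR inhibitors. The labels name neither the promoter nor the species of the EGFR transgene, nor the animal, sex or batch of a sample, and they do not say which normals carried a transgene. Whether any Egfr probe set also detects transgene RNA was not tested. Macro-dissected nodules keep host vessels, stroma and leukocytes, and no label ties an array to a mouse of its own, so the p-values cover the spread between arrays, which may be partly technical.

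ERBB receptors are tyrosine kinases of the cell surface that pair when ligands bind. EGFR binds EGF, TGF-alpha, epiregulin and related ligands. ERBB2 has no known ligand of its own and is a preferred partner, ERBB3 has a weak kinase and docks PI3-kinase when paired with ERBB2 or EGFR, and ERBB4 binds neuregulins. LRIG1 lowers the amount of ERBB receptors on the cell by drawing in the ubiquitin ligase CBL. In lung, epithelial cells use neuregulin signals through ERBB2 and ERBB3, and EGFR is present in epithelial and stromal cells.

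Egfr (chr11:16752203-16913907) and Erbb2 (chr11:98412484-98437716) lie on the same chromosome of GRCm38.p6, and some of their probe sets moved in opposite directions in the tumours. The 250 bases upstream of each RefSeq gene start (chr11:16751953-16752202 and chr11:98412234-98412483, both on the plus strand) are shown because they are the windows next to those genes' starts. Capitals mark AGGAAG, the core of sites for PEA3 and other ETS factors, or GGGCGG, the GC box, on either strand (CTTCCT and CCGCCC on the strand printed when the match is on the other one).
Egfr: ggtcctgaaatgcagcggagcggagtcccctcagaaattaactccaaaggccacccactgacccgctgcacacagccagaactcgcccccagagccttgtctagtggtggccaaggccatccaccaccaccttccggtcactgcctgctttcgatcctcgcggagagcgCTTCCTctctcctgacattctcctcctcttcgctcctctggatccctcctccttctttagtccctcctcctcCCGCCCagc
Erbb2: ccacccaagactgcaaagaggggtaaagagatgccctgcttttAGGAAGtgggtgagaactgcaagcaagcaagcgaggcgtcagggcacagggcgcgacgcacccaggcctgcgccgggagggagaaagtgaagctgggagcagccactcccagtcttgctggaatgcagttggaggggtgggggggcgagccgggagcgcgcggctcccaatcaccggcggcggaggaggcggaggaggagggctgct
The Egfr window had 60.8% G and C, and its AGGAAG match began at position -81 and its GGGCGG match at -9, counted back from the gene start. In the Erbb2 window, with 66% G and C, AGGAAG began at -207. Among 32851 promoter windows of this length, 29.5% held AGGAAG and 32.7% held GGGCGG. Neither the TATA box TATAAA (12.4% of windows) nor the AP-1 site TGANTCA (6.75%) occurred in these windows, and no motif overlapped another. A match describes letters only.

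The Egfr probe sets did not behave as a single group. Probe sets 1424932_at and 1435888_at were lower in all 3 tumour groups than in normal lungs by at least 1.45 on the log2 scale, whereas 1451530_at and 1460420_a_at differed between tumour genotypes. All values are deposited log2 values, on which a difference of 1 is a doubling, and every difference below is the tumour or first-named group minus the other, ± SE, from limma over all 24 arrays. A probe set was called at an adjusted p under 0.05 (Benjamini-Hochberg over all 45037 probe sets). In bulk tissue, fewer cells of a type and less RNA per cell cannot be told apart.

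Egfr 1424932_at read 6.56, 5.35, 5.45 and 5.32 in L858R tumours, against 7.93, 7.73, 8.06, 7.74 and 7.98 in mixed-strain normals. It read 6.02, 5.36, 6.51, 5.45 and 7.44 in L858R+T790M tumours and 6.66, 5.20, 6.44, 5.41 and 5.93 in T790M tumours, against 7.95, 7.97, 7.87, 7.21 and 7.05 in FVB normals. L858R replicate 1 stood above the other L858R tumours, and L858R+T790M replicate 5 was the only tumour inside the range of its normals. The difference was -2.22 ± 0.36 in L858R tumours (4.65-fold lower, adjusted p = 5.15e-05), -1.45 ± 0.34 in L858R+T790M tumours (2.74-fold lower, adjusted p = 0.00231) and -1.68 ± 0.34 in T790M tumours (3.21-fold lower, adjusted p = 0.000578). Without L858R+T790M replicate 5 the second difference was -1.78 (adjusted p = 0.000135). From high to low, the group means were 7.89 ± 0.15 in mixed-strain normals, 7.61 ± 0.44 in FVB normals, 6.16 ± 0.86 in L858R+T790M, 5.93 ± 0.63 in T790M and 5.67 ± 0.60 in L858R tumours (SD, n = 5 each, 4 for L858R). The ranges of neighbours in that order overlapped.

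Egfr 1435888_at was likewise lower in all 3 tumour groups. It read 8.13, 6.76, 6.85 and 6.88 in L858R tumours, against 9.12, 8.91, 9.12, 9.02 and 8.95 in mixed-strain normals. It read 7.27, 6.24, 7.84, 6.55 and 8.18 in L858R+T790M tumours and 7.64, 6.45, 7.70, 6.67 and 7.27 in T790M tumours, against 9.26, 9.11, 9.33, 8.74 and 8.18 in FVB normals. L858R and T790M tumours lay below all their normals, and L858R+T790M replicate 5 equalled the lowest FVB normal. The differences were -1.87 ± 0.36 (adjusted p = 0.000265), -1.71 ± 0.34 (adjusted p = 0.000461) and -1.78 ± 0.34 (adjusted p = 0.000289) for L858R, L858R+T790M and T790M tumours in turn. These calls and those of 1424932_at held without each array in turn and under every other alternative except the fit of 1 probe set per gene, which held neither probe set.

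Markers of stromal and type 1 alveolar cells were lower in the same tumours. Of 10 fibroblast markers 9, 7 and 7 were lower in L858R, L858R+T790M and T790M tumours, and none was higher. Of 8 endothelial markers 8, 8 and 7 were lower, and none was higher. Of 8 alveolar type 1 markers 7, 4 and 7 were lower, and the water channel gene Aqp5 was higher in L858R (1.02) and L858R+T790M tumours (1.03). The Aqp5 call was lost in 3 of the 9 L858R fits that left out 1 array (lacking L858R tumour 1 or 2, or normal lung 3 of the mixed strain, 0.91 to 1.00, adjusted p = 0.0515 to 0.0642) and in 4 of the 10 L858R+T790M fits (lacking L858R+T790M tumour 1 or 4, or FVB lung 4 or 5, 0.90 to 0.97, adjusted p = 0.051 to 0.0625). The mean of the fibroblast list ranged from 8.58 to 10.56 in L858R, 8.63 to 10.60 in L858R+T790M and 8.42 to 10.73 in T790M tumours, against 12.11 to 12.22 in mixed-strain and 11.24 to 11.85 in FVB normals. The endothelial mean ranged from 8.26 to 10.96 over the tumours, against 11.60 to 12.23 over the normals, so neither list overlapped between tumours and normals. Their part in the Egfr differences was not tested.

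Egfr 1451530_at, which has the same target record as 1424932_at, showed another pattern. It read 6.87, 7.14, 7.17 and 7.36 in L858R tumours, against 7.30, 7.33, 7.60, 7.46 and 7.66 in mixed-strain normals. It read 7.72, 7.43, 7.69, 7.61 and 7.95 in L858R+T790M tumours and 6.88, 6.57, 7.21, 6.72 and 7.02 in T790M tumours, against 7.46, 7.63, 7.51, 7.37 and 7.16 in FVB normals. T790M replicate 3 lay just inside the FVB normals, while the other T790M tumours lay below them. The T790M difference was -0.55 ± 0.12 (adjusted p = 0.00132), and the L858R+T790M difference of 0.25 ± 0.12 was not called (adjusted p = 0.124). In L858R tumours it was -0.33 ± 0.13 (adjusted p = 0.046), a call lost when arrays were centred on their medians (-0.26, adjusted p = 0.106), quantile-normalized again (-0.25, adjusted p = 0.124) or weighted (-0.30, adjusted p = 0.0815), and with the replicate number as a block (-0.31, adjusted p = 0.066). That call was also lost without L858R replicate 1 (-0.25, adjusted p = 0.161), 2 (-0.34, adjusted p = 0.078) or 3 (-0.35, adjusted p = 0.0695), or, among mixed-strain normals, without replicate 3 (-0.30, adjusted p = 0.0956), 4 (-0.34, adjusted p = 0.0671) or 5 (-0.29, adjusted p = 0.109).

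Egfr 1460420_a_at separated the T790M tumours from the rest. It read 9.08, 9.18, 9.22 and 9.21 in L858R tumours, against 9.12, 9.00, 9.24, 9.03 and 9.19 in mixed-strain normals. It read 9.03, 9.12, 9.13, 9.09 and 9.16 in L858R+T790M tumours and 8.85, 8.75, 8.90, 8.81 and 8.81 in T790M tumours, against 9.18, 9.16, 9.20, 9.00 and 9.02 in FVB normals. All T790M tumours lay below all other arrays, and how many of all probe sets set a group apart in this way was not counted. The difference from FVB normals was -0.29 ± 0.06 in T790M tumours (1.22-fold lower, adjusted p = 0.000974), a small change beside a narrow spread. L858R tumours differed by 0.06 ± 0.07 (adjusted p = 0.535), and L858R+T790M tumours by -0.01 ± 0.06 (adjusted p = 0.96).

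The other Egfr probe sets moved little. Means of 1432647_at were 7.44, 7.62 and 7.51 in L858R, L858R+T790M and T790M tumours, against 7.54 in mixed-strain and 7.78 in FVB normals, and the T790M difference of -0.27 ± 0.08 was called (adjusted p = 0.0104). With array weights the L858R+T790M difference was called too (-0.18, adjusted p = 0.0393). Against all 10 normal lungs as 1 group, the T790M difference was -0.14 (adjusted p = 0.165). Probe set 1454313_at, with the same target record, averaged 6.78 ± 0.09 in L858R tumours and 6.56 ± 0.08 in mixed-strain normals (SD, n = 4 and 5), a called difference of 0.22 ± 0.07 (adjusted p = 0.0212). That call was lost without L858R replicate 2 (0.18, adjusted p = 0.0789) or 3 (0.21, adjusted p = 0.0547), and without replicate 5 of the mixed-strain normals (0.20, adjusted p = 0.0512). Probe set 1457563_at, where only 4.7% of all probe sets were dimmer, had group means between 4.04 and 4.20 and no call against normals.

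**Figure D1:**
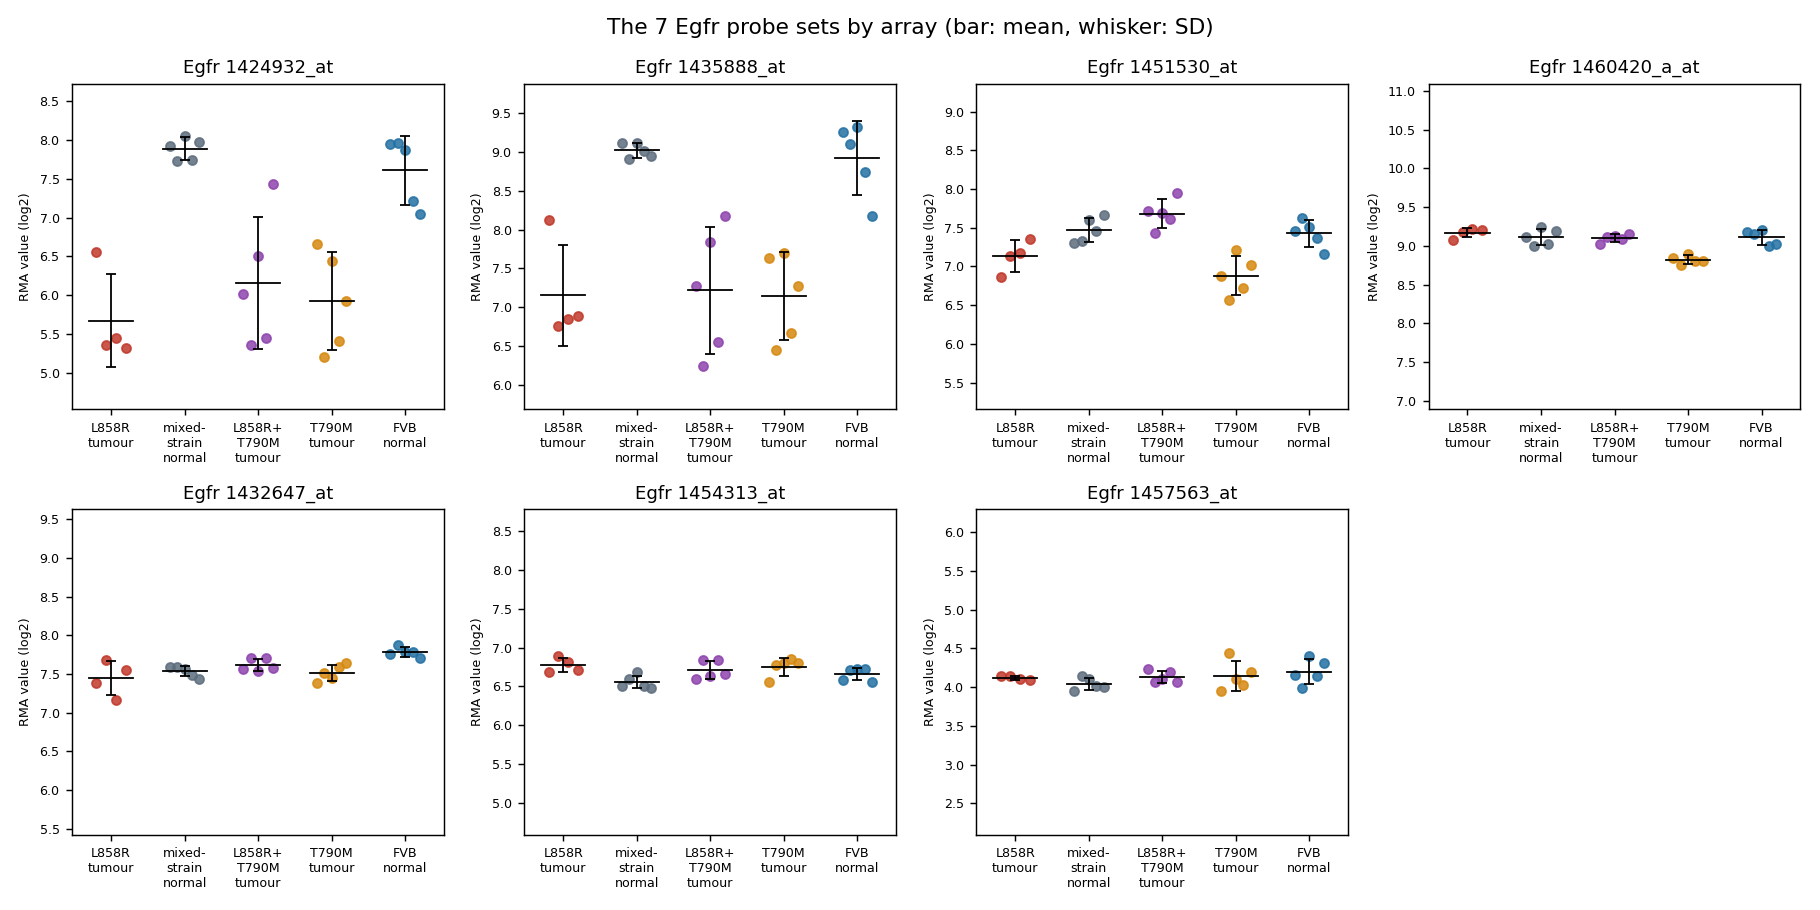
Deposited log2 value of each of the 7 Egfr probe sets (vertical axes) by group (horizontal axis), 1 point per array, with a bar at the group mean and a whisker of 1 SD. Tumours sit below normals in 1424932_at and 1435888_at, apart from L858R+T790M replicate 5, and the 5 T790M tumours, at 8.75 to 8.90, sit below every other array in 1460420_a_at.

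Erbb2 and the brighter Erbb3 probe set, 1434606_at, were higher in all 3 tumour groups, and in both the tumours did not overlap with the normals. How many of all probe sets keep groups apart in this way, here or in other comparisons, was not counted. Erbb2 1424919_at read 9.03, 8.91, 9.19 and 8.95 in L858R tumours, against 8.35, 8.45, 8.29, 8.69 and 8.42 in mixed-strain normals. It read 8.94, 9.27, 9.04, 9.12 and 8.89 in L858R+T790M tumours and 8.92, 9.14, 8.86, 9.05 and 8.89 in T790M tumours, against 8.36, 8.34, 8.47, 8.23 and 8.28 in FVB normals. The lowest tumour (8.86) stood above the highest normal lung (8.69). Erbb2 rose by 0.58 ± 0.09 in L858R (1.49-fold, adjusted p = 3.69e-05), 0.72 ± 0.09 in L858R+T790M (1.64-fold, adjusted p = 2.35e-06) and 0.64 ± 0.09 in T790M tumours (1.55-fold, adjusted p = 9.77e-06). Group means ran from 9.05 ± 0.15 in L858R+T790M through 9.02 ± 0.12 in L858R and 8.97 ± 0.12 in T790M tumours to 8.44 ± 0.15 in mixed-strain and 8.34 ± 0.09 in FVB normals (SD, n = 5 each, 4 for L858R), and the T790M tumours and mixed-strain normals were the only neighbours whose ranges did not overlap.

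Erbb3 (chr10:128567523-128589635) gave the largest rise of the 14 probe sets. Erbb3 1434606_at read 10.79, 10.11, 10.46 and 10.63 in L858R tumours, against 9.23, 9.56, 9.19, 9.39 and 9.23 in mixed-strain normals. It read 10.27, 10.55, 10.13, 10.25 and 9.99 in L858R+T790M tumours and 9.99, 11.20, 10.10, 10.41 and 10.23 in T790M tumours, against 9.47, 9.19, 9.29, 8.99 and 9.04 in FVB normals. Each tumour was above every normal lung, and T790M replicate 2 was the highest array. The rise was 1.18 ± 0.19 in L858R (2.26-fold, adjusted p = 3.23e-05), 1.04 ± 0.18 in L858R+T790M (2.06-fold, adjusted p = 8.73e-05) and 1.19 ± 0.18 in T790M tumours (2.28-fold, adjusted p = 2.11e-05). The Erbb2 and Erbb3 1434606_at calls against normals held under every alternative and without each array in turn.

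The other Erbb3 probe set, 1452482_at, moved less. It read 6.77, 6.55, 6.93 and 7.03 in L858R tumours, against 6.49, 6.51, 6.51, 6.55 and 6.45 in mixed-strain normals, and the difference of 0.32 ± 0.15 was not called (adjusted p = 0.0935). It was called after centring (0.39, adjusted p = 0.0403), after quantile normalization (0.38, adjusted p = 0.0497), with array weights (0.34, adjusted p = 0.0223), in a fit of only the groups compared (0.32, adjusted p = 0.026), against all 10 normal lungs (0.32, adjusted p = 0.0477) and without L858R replicate 2 (0.41, adjusted p = 0.0481). It read 6.64, 7.12, 6.88, 6.93 and 6.78 in L858R+T790M tumours and 6.61, 7.64, 6.88, 6.75 and 6.68 in T790M tumours, against 6.59, 6.45, 6.52, 6.44 and 6.52 in FVB normals. Every tumour lay above its normals except L858R replicate 2, which equalled the highest. When 1 array was left out at a time, the L858R+T790M rise of 0.37 ± 0.14 (adjusted p = 0.0481) kept its call only without L858R+T790M replicate 1, and was 0.30 (adjusted p = 0.128) without replicate 2. Without the other L858R+T790M or the FVB normal replicates in turn it was 0.35 to 0.39, and with the replicate number as a block 0.37 (adjusted p = 0.0542). The T790M rise of 0.41 ± 0.14 (adjusted p = 0.025) was lost without T790M replicate 2 (0.23, adjusted p = 0.0639) or FVB normal replicate 2 (0.39, adjusted p = 0.0505) or 4 (0.39, adjusted p = 0.0515), and in a fit of only the groups compared (0.41, adjusted p = 0.0888).

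Pan-epithelial and alveolar type 2 markers were higher in the same tumours, while those of other epithelial types were lower. Of 10 pan-epithelial markers 8, 10 and 8 were higher in L858R, L858R+T790M and T790M tumours and none was lower. The cell adhesion gene Epcam differed by 1.60, 1.35 and 1.54, and Esrp1, a regulator of epithelial splicing, by 1.50, 1.74 and 1.69. The list mean ranged from 10.85 to 11.67 over the tumours, against 9.93 to 10.25 over the normals. Of 9 measured alveolar type 2 markers, 8, 8 and 7 were higher and none was lower. Of 5 club cell markers 5, 5 and 4 were lower, of 5 ciliated cell markers 4 were lower in each group, and none of either list was higher. Their part in the Erbb2 and Erbb3 differences was not tested.

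Erbb4 (chr1:68031884-69108576) was near the bottom of the array's range, where only 0.7% of probe sets were dimmer. Erbb4 1427783_at read 3.59, 3.63, 3.67 and 3.70 in L858R tumours, against 3.49, 3.55, 3.53, 3.64 and 3.73 in mixed-strain normals. It read 3.54, 3.78, 3.54, 3.54 and 3.46 in L858R+T790M tumours and 3.67, 3.64, 3.70, 3.51 and 3.52 in T790M tumours, against 3.19, 3.40, 3.40, 3.39 and 3.37 in FVB normals. The FVB normals were below all other arrays, so both called differences, 0.22 ± 0.06 for L858R+T790M (adjusted p = 0.00578) and 0.26 ± 0.06 for T790M tumours (adjusted p = 0.00157), rest on that set of lungs. Against all 10 normal lungs they were 0.10 (adjusted p = 0.235) and 0.14 (adjusted p = 0.101). In L858R tumours the difference was 0.06 ± 0.06 (adjusted p = 0.486), and against all 10 normal lungs it was 0.18 and called (adjusted p = 0.0471).

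Lrig1 (chr6:94604529-94700298) had a pair of probe sets in which some tumours lay above and others below the normal lungs. Lrig1 1434210_s_at read 7.90, 8.05, 7.74 and 7.96 in L858R tumours, against 8.61, 8.41, 8.49, 8.67 and 8.46 in mixed-strain normals. It read 7.92, 9.25, 7.75, 7.54 and 7.93 in L858R+T790M tumours and 8.23, 9.26, 7.92, 8.89 and 8.00 in T790M tumours, against 8.39, 8.18, 8.34, 8.21 and 8.41 in FVB normals. L858R+T790M replicate 2 and T790M replicates 2 and 4 were above all normal lungs, while the L858R tumours lay below theirs. The differences of -0.62 ± 0.26 (adjusted p = 0.0717), -0.23 ± 0.25 (adjusted p = 0.542) and 0.15 ± 0.25 (adjusted p = 0.677) in L858R, L858R+T790M and T790M tumours were not called. Each SE rests on the spread pooled over all groups. The SDs were 0.13 in L858R tumours and 0.11 in mixed-strain normals, against 0.67 in L858R+T790M and 0.59 in T790M tumours. The L858R difference was called when only the groups compared were fitted (-0.62, adjusted p = 0.000374) or arrays were weighted (-0.63, adjusted p = 0.0244), or with the replicate number as a block (-0.65, adjusted p = 0.0481), and the L858R+T790M difference was called without its replicate 2 (-0.52, adjusted p = 0.0464). The suffix _s marks a probe set whose probes may match further transcripts.

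Lrig1 1449893_a_at repeated the pattern with a wider range. It read 6.84, 6.92, 6.47 and 6.48 in L858R tumours, against 7.61, 7.37, 7.51, 7.82 and 7.78 in mixed-strain normals. It read 6.45, 8.51, 6.30, 6.01 and 6.98 in L858R+T790M tumours and 7.25, 8.37, 6.62, 8.27 and 6.77 in T790M tumours, against 7.25, 6.93, 7.27, 7.30 and 7.42 in FVB normals. The same 3 tumours were the highest arrays. Differences were -0.94 ± 0.38 (adjusted p = 0.0571), -0.38 ± 0.36 (adjusted p = 0.465) and 0.22 ± 0.36 (adjusted p = 0.678), and without L858R+T790M replicate 2 the second was -0.80 and called (adjusted p = 0.0378). The first was called when only the groups compared were fitted (-0.94, adjusted p = 0.000228), with weights (-0.96, adjusted p = 0.0211) and with the 15014 dimmest probe sets dropped (-0.94, adjusted p = 0.0496). Here too the SE was pooled, over SDs of 0.24 in L858R and 0.99 in L858R+T790M tumours. Probe set 1419928_at had group means of 7.02 to 7.24 and differences between -0.15 and -0.12, none of them called.

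**Figure D2:**
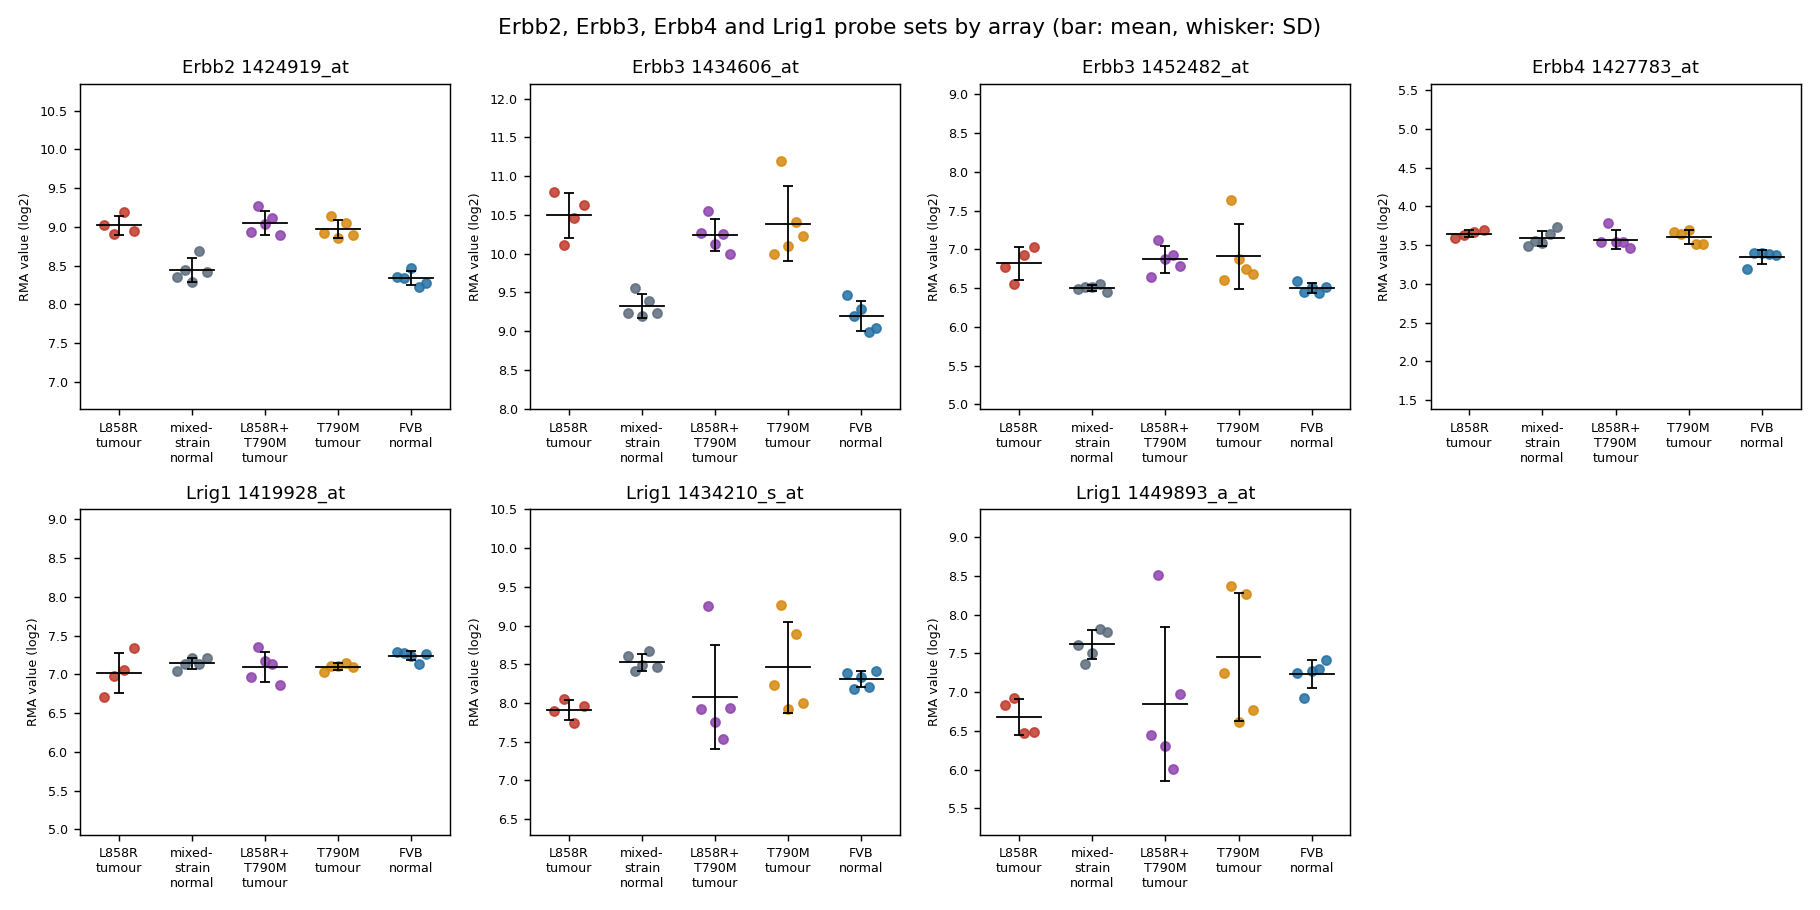
Deposited log2 value of the Erbb2, Erbb3, Erbb4 and Lrig1 probe sets (vertical axes) by group (horizontal axis), 1 point per array, with a bar at the group mean and a whisker of 1 SD. Erbb2 and Erbb3 1434606_at do not overlap between tumours and normals, and 3 tumours stand at 8.89 or above in Lrig1 1434210_s_at.

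Counted together, 6 of the 14 probe sets were called in L858R tumours (42.9%), 3 higher and 3 lower, where 37.3% of all probe sets were called, 20.3% higher and 17.0% lower. In L858R+T790M tumours 6 were called (42.9%), 4 higher and 2 lower, against 30.8% of all, 16.5% higher and 14.2% lower. In T790M tumours 9 were called (64.3%), 4 higher and 5 lower, against 34.8% of all, 18.5% higher and 16.3% lower. The L858R and L858R+T790M shares were near the background of tumour against normal lung. In T790M tumours all 5 lower calls were of the single gene Egfr, and both Erbb3 probe sets were among the 4 higher. Probe sets of a single gene are not independent, so the T790M share is no count of genes. The T790M differences of Egfr 1432647_at and Erbb4 were not called against all 10 normal lungs. The L858R+T790M and T790M comparisons share the FVB normals. With arrays centred on their medians, 67.3% of all calls in L858R tumours were higher, against 54.3% without centring.

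**Figure D3:**
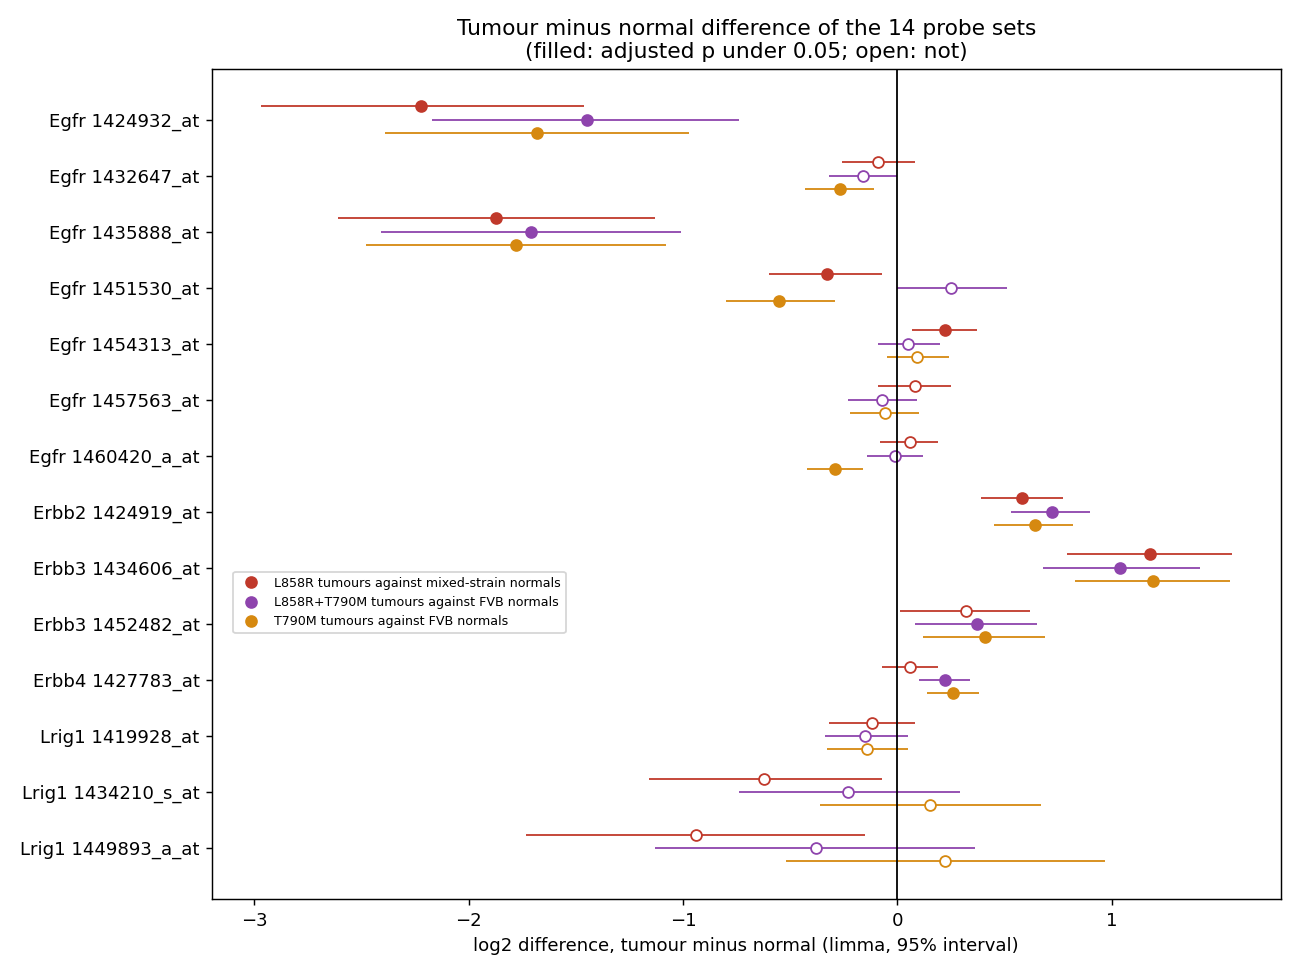
Log2 difference of tumour minus normal lung with its 95% interval (horizontal axis) for the 14 probe sets (vertical axis) in the 3 tumour groups, filled where the adjusted p was under 0.05. The longest shifts are the falls of Egfr 1424932_at (-2.22 to -1.45) and 1435888_at and the rises of Erbb3 1434606_at (1.04 to 1.19), and the wide intervals of the last 2 Lrig1 rows cross 0 in L858R+T790M and T790M tumours.

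Between tumours of the same strain label, L858R+T790M and T790M tumours differed in 2 probe sets, both of Egfr. These were 2 of 14 (14.3%), where 1.15% of all probe sets were called. Being of a single gene, the 2 are not independent. The remaining Egfr probe sets were not called by limma, with differences of -0.04 to 0.23 (adjusted p = 0.552 to 0.963). Egfr 1451530_at was higher in L858R+T790M tumours by 0.80 ± 0.12 (1.74-fold, 95% interval 0.55 to 1.05, adjusted p = 0.00355), and all 5 of them lay above all 5 T790M tumours. Egfr 1460420_a_at was higher by 0.28 ± 0.06 (1.22-fold, 95% interval 0.15 to 0.41, adjusted p = 0.0281), again with no overlap. When only these 10 arrays were fitted neither passed (0.80, adjusted p = 0.171, and 0.28, adjusted p = 0.314). The 1460420_a_at call was also lost with array weights (0.25, adjusted p = 0.0601) and without L858R+T790M replicate 1 (0.30, adjusted p = 0.056) or 5 (0.27, adjusted p = 0.0651) or T790M replicate 4 (0.28, adjusted p = 0.0518).

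The receptors Erbb2 and Erbb3 did not separate these genotypes. The Erbb2 difference was 0.08 (95% interval -0.10 to 0.26, adjusted p = 0.709) and that of Erbb3 1434606_at was -0.15 (95% interval -0.51 to 0.22, adjusted p = 0.736). For Lrig1 1449893_a_at it was -0.61 ± 0.36 (95% interval -1.35 to 0.14, adjusted p = 0.437). These intervals leave room for differences of that size.

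L858R tumours were compared with the other genotypes after each group's own normals had been subtracted. None of the 14 probe sets was called in either comparison by limma. Against L858R+T790M tumours 0.171% of all probe sets were called, and 1 of the 14 had an unadjusted p under 0.05, Egfr 1451530_at (-0.59 ± 0.18, adjusted p = 0.203). Against T790M tumours 0.411% were called, and 4 of the 14 had an unadjusted p under 0.05, namely Egfr 1460420_a_at (0.34 ± 0.09, adjusted p = 0.087), Erbb4 (adjusted p = 0.285), Lrig1 1434210_s_at (-0.77 ± 0.36, adjusted p = 0.326) and Lrig1 1449893_a_at (-1.16 ± 0.52, adjusted p = 0.305). The direct difference between the tumours leaves in strain and anything else that goes with the strain label. It was called for 1451530_at against L858R+T790M (-0.54, adjusted p = 0.0214) and for 1460420_a_at against T790M (0.35, adjusted p = 0.00419).

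The normal lungs of the 2 strain labels differed in 1 of 14 probe sets (7.14%), where 2.48% of all were called. Array titles also differ between these sets (Normal for the mixed strain, control for FVB). Strain therefore cannot be told apart from other differences between the 2 sets. Erbb4 was higher in mixed-strain than in FVB normals by 0.24 ± 0.06 (adjusted p = 0.0327). That call was lost without FVB normal replicate 1 (0.20, adjusted p = 0.0832), 2 (0.25, adjusted p = 0.0554), 4 (0.25, adjusted p = 0.0627) or 5 (0.24, adjusted p = 0.0691), and, among mixed-strain normals, without replicate 2 (0.25, adjusted p = 0.061), 4 (0.23, adjusted p = 0.0819) or 5 (0.20, adjusted p = 0.0932). It was also lost with no trend (0.24, adjusted p = 0.0507) and with 1 probe set per gene (0.24, adjusted p = 0.0509). Egfr 1432647_at differed by -0.25 ± 0.08 and was not called (adjusted p = 0.0942), but was called with array weights (-0.25, adjusted p = 0.00554) and in a fit of only the normals (-0.25, adjusted p = 0.0166). Lrig1 1449893_a_at was called in that last fit as well (0.38, adjusted p = 0.0361).

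Tumours also varied within genotype. Over the 14 tumours, with each genotype's mean removed, 12 relations were tested by permutation within genotype (two-sided, 100000 resamples, adjusted over the 12). Egfr 1424932_at and 1435888_at rose and fell together (Pearson's r = 0.968, permutation p = 3e-05, adjusted p = 0.00018; Spearman's rho = 0.965, permutation p = 3e-05, adjusted p = 0.00018), and r was 0.962 without the 2 tumours farthest from the median. Between 1424932_at and 1451530_at, r was 0.441 (permutation p = 0.139, adjusted p = 0.139) and rho 0.468 (permutation p = 0.121, adjusted p = 0.132), and r was 0.629 without 2 tumours. For 1451530_at and 1460420_a_at, r was 0.695 (permutation p = 0.0149, adjusted p = 0.0198) and rho 0.660 (permutation p = 0.0218, adjusted p = 0.0327), and r was 0.525 without 2 tumours.

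Egfr 1424932_at also varied with the stromal lists. With the fibroblast mean, r was 0.810 (permutation p = 0.00168, adjusted p = 0.00403) and rho 0.864 (permutation p = 0.00068, adjusted p = 0.00163), and r was 0.856 without 2 tumours. With the endothelial mean, r was 0.861 (permutation p = 0.00063, adjusted p = 0.00249) and rho 0.864 (permutation p = 0.001, adjusted p = 0.002), and r was 0.884 without 2 tumours. Tumours with more fibroblast and endothelial marker signal thus had the higher 1424932_at values. With the alveolar type 1 mean, r was 0.789 (permutation p = 0.00083, adjusted p = 0.00249) and rho 0.881 (permutation p = 0.00027, adjusted p = 0.00108), and r was 0.717 without 2 tumours.

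Erbb3 1434606_at varied with its other probe set, with Erbb2 and with the epithelial list. With 1452482_at, r was 0.842 (permutation p = 0.0116, adjusted p = 0.0174) and rho 0.692 (permutation p = 0.0173, adjusted p = 0.0297), and r was 0.568 without 2 tumours. With Erbb2, r was 0.666 (permutation p = 0.00686, adjusted p = 0.0118) and rho 0.576 (permutation p = 0.0336, adjusted p = 0.0449), and r was 0.620 without 2 tumours. Tumours high in Erbb3 were therefore more often high in Erbb2. With the pan-epithelial mean, r was 0.850 for Erbb3 (permutation p = 0.00354, adjusted p = 0.00708; rho 0.820, permutation p = 0.00061, adjusted p = 0.00163; r = 0.602 without 2 tumours). For Erbb2 it was 0.594 (permutation p = 0.0228, adjusted p = 0.0274), where rho of 0.554 did not pass (permutation p = 0.0678, adjusted p = 0.0814) and r without 2 tumours was 0.677.

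The 2 variable Lrig1 probe sets tracked each other (r = 0.972, permutation p = 3e-05, adjusted p = 0.00018; rho 0.965, permutation p = 2e-05, adjusted p = 0.00018; r = 0.945 without 2 tumours). Lrig1 1449893_a_at and the pan-epithelial mean gave r of 0.508 (permutation p = 0.114, adjusted p = 0.124) and rho of 0.389 (permutation p = 0.245, adjusted p = 0.245), and r was 0.125 without 2 tumours.

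**Figure D4:**
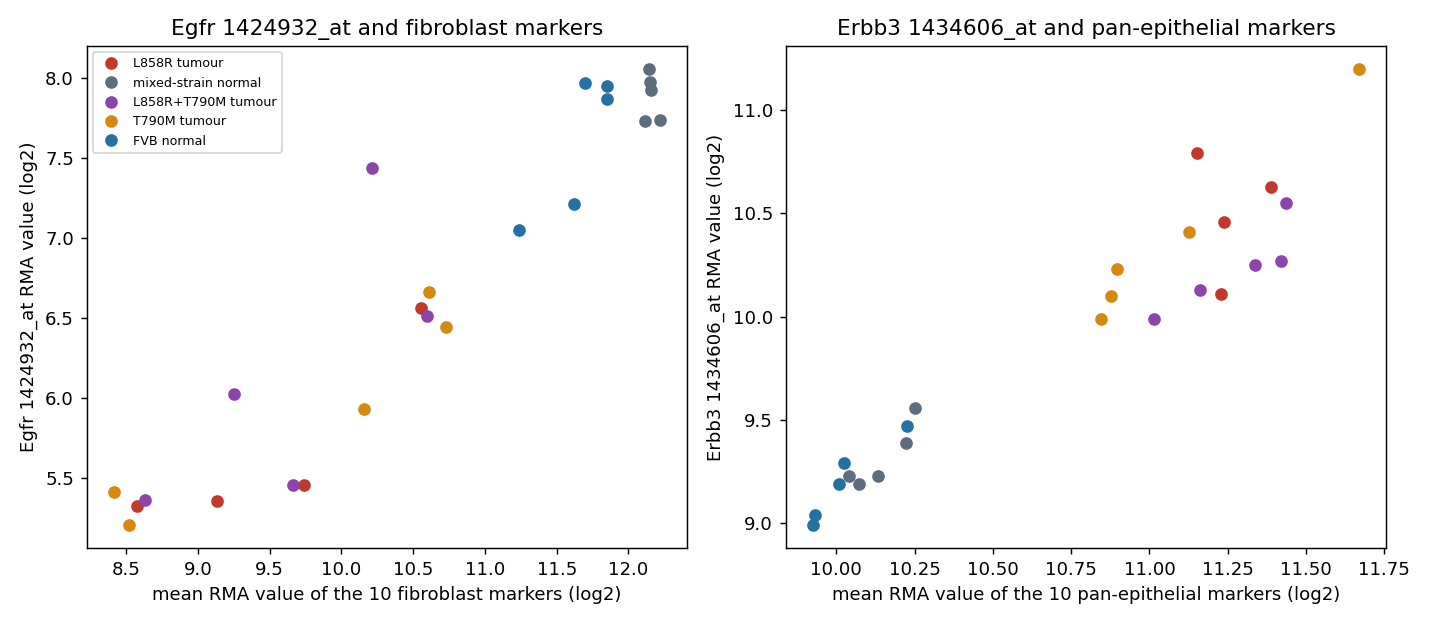
Each point is 1 of the 24 arrays, coloured by group; left, Egfr 1424932_at (log2, vertical axis) against the mean of the 10 fibroblast markers (log2, horizontal axis), and right, Erbb3 1434606_at against the mean of the 10 pan-epithelial markers. Normal lungs lie at fibroblast means of 11.24 or above and pan-epithelial means of 10.25 or below, and the tumours spread along both axes.

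The genes most like each receptor over the 24 arrays were named as a description, since tumours and normals both enter. Egfr 1424932_at was most like Vgll3 (r = 0.977, and 0.917 with group means removed), Fam13c (0.975 and 0.919) and Akap2 (0.975 and 0.905). Egfr 1435888_at was most like Pxdc1 (0.978 and 0.929), Rhoj (0.975 and 0.912), a small GTPase of endothelial cells, and Lbh (0.970 and 0.890). Egfr 1451530_at was most like Slc12a4 (0.816 and 0.640), Mmp19 (0.812 and 0.691) and Vash2 (0.793 and 0.592), and 1460420_a_at most like Mmp19 (0.786 and 0.566), a matrix metalloproteinase, Anxa5 (0.758 and 0.361) and Rps4l (0.750 and 0.384). The falling pair of Egfr probe sets shared no named gene with each other or with the other pair. Lists of 3 genes are too short to tell the pairs apart. Erbb2 was most like Sorcs2 (0.965 and 0.734), Ap1m2 (0.961 and 0.643), an epithelial clathrin adaptor subunit, and Mrpl51 (0.961 and 0.696). Erbb3 1434606_at was most like Esrp2 (0.958 and 0.818), a regulator of epithelial splicing, Golph3 (0.955 and 0.826) and Prpf18 (0.954 and 0.734). Lrig1 1434210_s_at was most like Shisa2 (0.873 and 0.835), the desmosome gene Dsg2 (0.870 and 0.874) and Fhit (0.851 and 0.841), and Erbb4 most like Rrp1 (0.854 and 0.683), Zmym3 (0.821 and 0.562) and Galt (0.818 and 0.547).

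Other genes of the ERBB pathway were described with 1 probe set each, the one with the highest mean. Taken that way, 22.8% of all genes were higher and 17.8% lower in L858R, 19.4% higher and 15.6% lower in L858R+T790M, and 21.3% higher and 17.4% lower in T790M tumours. The median over all genes was 0.05, 0.03 and 0.00 in the same order. Of 10 measured ligand genes 5 rose and 1 fell in L858R tumours (median 0.56), 5 rose and 1 fell in L858R+T790M tumours (median 0.50), and 3 rose and 1 fell in T790M tumours (median 0.12). Epiregulin (Ereg) rose by 5.85 ± 0.55, 6.43 ± 0.51 and 3.30 ± 0.51, and betacellulin (Btc) by 1.04, 1.05 and 0.58. The Btc call in T790M tumours was lost when T790M tumour 1, 2 or 5 was left out, and when FVB lung 2, 3 or 4 was left out (0.41 to 0.60, adjusted p = 0.0644 to 0.15). Neuregulin 1 (Nrg1), a ligand of ERBB3 and ERBB4, fell by 0.65, 0.44 and 0.63. Neuregulin 4 (Nrg4), a ligand of ERBB4, rose by 0.60 ± 0.09 in L858R tumours and differed by -0.05 in both other groups, and the strain-adjusted difference was 0.65 against L858R+T790M (adjusted p = 0.0301) and 0.65 against T790M tumours (adjusted p = 0.0195). L858R+T790M tumours were above T790M tumours in Ereg (3.13 ± 0.51, adjusted p = 0.00612), Hbegf (1.08 ± 0.18, adjusted p = 0.00796) and Epgn (0.95 ± 0.14, adjusted p = 0.00305). The Nrg4 call against L858R+T790M tumours was lost in 10 of 19 fits that left out 1 array (0.63 to 0.66). Hbegf was the 1 ligand called lower in that comparison, with a strain-adjusted difference of -1.38. The Hbegf call was lost in many of those fits (-1.43 to -1.29, adjusted p = 0.0504 to 0.0738).

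Of 16 genes of receptor feedback and turnover, 6 rose and 2 fell in L858R tumours (median 0.04), 6 rose and 1 fell in L858R+T790M tumours (median 0.22), and 7 rose and 2 fell in T790M tumours (median 0.00). Errfi1, an inhibitor of the EGFR kinase, rose by 1.01 ± 0.21, 1.24 ± 0.20 and 0.72 ± 0.20, and Dusp6, a phosphatase of ERK, by 0.72, 0.96 and 0.73. Lrig3, a relative of Lrig1, fell by 1.00 ± 0.12, 0.93 ± 0.11 and 0.93 ± 0.11, and Lrig2 fell by 0.38 in L858R tumours. Cbl, the ubiquitin ligase, fell by 0.39 in T790M tumours, a call lost without T790M replicate 2 (-0.31, adjusted p = 0.0553) or 4 (-0.33, adjusted p = 0.0501). Thus Errfi1 and Dusp6 were higher while Lrig3 was lower in the same 3 tumour groups.

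Of 5 genes of ligand shedding, 3 rose and 2 fell in L858R tumours, 3 rose and 1 fell in L858R+T790M tumours, and 1 fell in T790M tumours. The ligand sheddase Adam17 rose by 0.66 and 0.39 in L858R and L858R+T790M tumours and differed by 0.09 in T790M tumours (adjusted p = 0.53), a contrast between L858R+T790M and T790M tumours of 0.29 that was not called (adjusted p = 0.173). Timp3, a metalloproteinase inhibitor, fell by 1.40, 0.81 and 0.98. The L858R+T790M call, the 1 fall counted there, was lost when L858R+T790M tumour 1, 2 or 4 was left out, and when FVB lung 1, 2 or 3 was left out (-0.77 to -0.68, adjusted p = 0.0597 to 0.0848). Of 16 adaptor and effector genes, 5 rose and 3 fell in L858R (median -0.02), 4 rose and 4 fell in L858R+T790M (median -0.03), and 4 rose and 5 fell in T790M tumours (median 0.02), with 5 falls in L858R tumours when L858R replicate 1 was left out. The adaptors Shc1 (0.98, 1.29 and 1.10) and Grb7 (1.20, 0.82 and 1.45) and the mucin Muc1 (1.21, 0.79 and 0.78) rose in all 3 groups. The PI3-kinase subunit Pik3r1 (-0.94, -0.72 and -0.66) and the endocytic adaptor Eps15 (-0.62, -0.57 and -0.77) fell in all 3.

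Over the series, array medians lay between 7.21 and 7.34. Of 6 smooth muscle and pericyte markers 5, 4 and 3 fell and 1 rose. Of 4 mesothelial markers 4, 2 and 4 fell, and of 5 leukocyte markers 2, 3 and 3 fell while 2 rose in L858R tumours. With L858R tumour 1 or 3 left out, or lung 2, 3 or 5 of the mixed-strain normals, 2 mesothelial markers fell in L858R tumours, and without L858R+T790M replicate 5, 4 fell in that group. Without L858R+T790M replicate 2, 2 leukocyte markers rose there. The 3' minus 5' control signal, a measure of RNA degradation, averaged 0.50, 0.54 and 0.57 for Actb in L858R, L858R+T790M and T790M tumours, against 0.44 in mixed-strain and 0.50 in FVB normals. It averaged -0.15, -0.12 and -0.18 for Gapdh in L858R, L858R+T790M and T790M tumours, against -0.26 in mixed-strain and -0.15 in FVB normals.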

How the data were processed

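RNA of 24 mouse lung samples, 14 tumours and 10 normal lungs, was hybridised to 1 array each. The authors deposited log2 values, 1 for each probe set and array, computed by RMA (per the submitters' processing notes). RMA corrects background, quantile-normalizes and summarises the probes of a set, so it puts arrays on a common scale and compresses low signals. Its version is not given in the sources used here. No further normalization was applied. Arrays hold no counts, so the number of arrays, 4 or 5 per group, limits the precision.

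Of 45101 probe sets, 64 controls were left out. The platform annotation gave 1 gene to 34945, several to 932 and none to 9160. Of the 34945, 34741 had an Entrez identifier found in RefSeq and took the RefSeq symbol, whether or not it differed. Probe sets with several genes were not used for naming. Promoter sequences came from RefSeq (GRCm38.p6) for 4 of the 5 genes. Those of Erbb4 and Lrig1 use a start inside the gene span given and are not described.

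The model, run in R 4.3.3 with limma 3.58.1, had a mean for each of the 5 groups (lmFit, 19 residual degrees of freedom, eBayes with trend, two-sided, Benjamini-Hochberg over all probe sets). Each tumour group was compared with the normals of its strain label. L858R tumours were compared with the other genotypes by the difference of those effects. The fit was tested on simulated data that gave each probe set the same SD in every group. That test therefore does not cover groups of unequal spread. Relations and figures used Python 3.11.15, NumPy 2.4.6, pandas 2.3.3 and matplotlib 3.10.9.

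All probe sets of the 5 genes are described. Each list gene is shown by its probe set of highest mean. For likeness, the 3 genes of highest r were named for that probe set of each gene, and for other probe sets called with the opposite sign to it. The members, gene lists and marker lists were chosen with earlier results of these data known. Alternatives were both rescalings, dropping the 15014 dimmest probe sets, 1 probe set per gene, array weights, no trend, only the groups compared, an adjusted p under 0.01, all normals as 1 group, direct tumour differences, the replicate number as a block and leaving out each array. List counts under rescaling and without each array were added after the data were seen.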

Additional observations from a re-analysis of the deposited data

Results flagged for a closer look

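Of 70 groups of values (14 probe sets in 5 groups), 7 held an array far from the others, and chance alone flags about 1 in 20 groups. L858R replicate 1 was high for Egfr 1424932_at (6.56, the others 5.32 to 5.45) and Egfr 1435888_at (8.13, the others 6.76 to 6.88), and without it the differences from mixed-strain normals were -2.51 and -2.19. T790M replicate 1 was low for Egfr 1454313_at (6.55, the others 6.77 to 6.85), and T790M replicate 2 was high for Erbb3 1452482_at (7.64, the others 6.61 to 6.88). L858R+T790M replicate 2 was high for Erbb4 (3.78, the others 3.46 to 3.54) and for Lrig1 1434210_s_at (9.25, the others 7.54 to 7.93). FVB normal replicate 1 was low for Erbb4 (3.19, the others 3.37 to 3.40).

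The effects of L858R+T790M and T790M tumours differed for Egfr 1451530_at (0.80) and Egfr 1460420_a_at (0.28), by limma's test of the difference. The FVB normals are shared, so this is the difference between the tumours themselves.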

How the results depend on the processing

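The results for single probe sets under the alternatives were 2020 on the same side of the threshold, 52 that lost and 21 that gained a call, and none turned a called direction. Differences that were called in neither fit count among the 2020 whatever their sign. The number of the 14 probe sets called between L858R+T790M and T790M tumours, 2 as reported, was 1 with array weights, 0 in a fit of only those groups, 1 at an adjusted p under 0.01, and 1 to 2 without each replicate in turn. Over all probe sets it was 517 as reported, 998 with array weights, 7 in a fit of only those groups and 137 to 759 without each replicate. L858R tumours against either other genotype gave 0 after strain adjustment and 1 by the direct difference. Mixed-strain against FVB normals gave 1 as reported, 0 with 1 probe set per gene, 2 with array weights, 0 with no trend, 3 in a fit of only the groups compared, 0 at an adjusted p under 0.01 and 0 to 1 without each replicate. Over all probe sets that comparison gave 1117 calls as reported, 8141 with array weights and 5912 in a fit of only the groups compared. Centring arrays on their medians moved the share of higher among all calls from 50.5% to 63.7% for the normals and from 31.2% to 42.1% for the strain-adjusted comparison of L858R with L858R+T790M tumours. In the gene lists, falls among feedback genes in T790M tumours were 2 as reported, 4 after quantile normalization and 1 without T790M replicate 4. Among shedding genes, falls in L858R tumours were 2 as reported and 1 after centring or without L858R replicate 2 or mixed-strain normal replicate 1, 2 or 4, falls in L858R+T790M tumours were 1 as reported and 2 after quantile normalization, and rises in T790M tumours were 0 as reported, 2 after centring and 1 without T790M replicate 2 or 4 or FVB normal replicate 3. Of the fibroblast list, 1 gene rose in L858R+T790M tumours without replicate 2, and 1 alveolar type 1 gene rose in T790M tumours without replicate 4. The causes were not tested.

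Same-numbered arrays were not treated as pairs in the main fit. Their deviations from the group means correlated at -0.296 to 0.0114 for L858R tumours with their normals, and at 0.0154 to 0.42 between L858R+T790M and T790M tumours. Correlations between arrays of different numbers were not examined, so these values cannot tell whether the numbers pair the samples. With the replicate number as a block, 6, 5 and 9 of the 14 probe sets were called in L858R, L858R+T790M and T790M tumours, 2 between L858R+T790M and T790M tumours, 0 in both strain-adjusted comparisons and 1 between normals. Over all probe sets the block gave 331 calls between L858R+T790M and T790M tumours (517 without it) and 38 between L858R and L858R+T790M tumours (77 without it). Arrays of 4 or 5 per group, and signals near the bottom of the range for Erbb4 and Egfr 1457563_at, limit what can be told apart.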
